A study of Mus musculus with 75 samples.

Results

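Of the 30 inguinal white fat libraries in the series, 16 carried the transcript of Glycam1 at 4 or more CPM and 14 carried it below that level. CPM here means the deposited expected count of a gene scaled to a library total of 1000000, the total being the sum over all genes. These 16 libraries, selected on Glycam1 alone, of 75 in the whole series, are called the lymph node set here, and the other 14 inguinal libraries are the comparison set. No label says whether a lymph node was cut out with the fat, so the name rests on the transcripts described below. Glycam1 was used to draw the sets and is left out of every result.

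The mice differed in the strain that gave the nucleus (n) and the strain that gave the mitochondria (mt). One wild type was C57BL6/J, written C57n:C57mt, and the other was C3H/HeN, written C3Hn:C3Hmt. The mitochondrial-nuclear exchange (MNX) lines were C57n:C3Hmt and C3Hn:C57mt. All were weaned onto chow and either stayed on it or were moved at 6 weeks of age to a high-fat diet (HFD), and tissue was taken at 12 to 13 weeks. Inguinal fat came from 16 chow animals, 4 of each genotype, and 14 HFD animals, with 3 of each line with a C3H nucleus and 4 of each line with a C57 nucleus. Each replicate has an animal number of its own in the titles and was treated as a separate animal. The sex of the animals is not stated, but 20 of them also gave epididymal fat, a depot of males. All chow libraries were sequenced in 1 run and all HFD libraries in 3 other runs, so diet and run cannot be told apart. Inguinal chow libraries with a C3H nucleus shared 1 lane and those with a C57 nucleus another. Nuclear genome and lane therefore cannot be told apart on chow.

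The inguinal fat pad of the mouse surrounds the inguinal lymph node, and a dissected piece can hold the node, part of it or none. A node is built from B cell follicles, a T cell zone and a stromal scaffold whose cells secrete the chemokines Cxcl13, Ccl19 and Ccl21. Naive lymphocytes leave the blood through high endothelial venules, whose cuboidal lining displays sulfated mucins such as the Glycam1 product. They are then held by chemokine receptors, Ccr7 toward the T cell zone and Cxcr5 (Blr1 in these files) toward the follicles. Glycam1 is also made by milk-secreting mammary epithelium, and inguinal fat of female mice contains a mammary gland.

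Glycam1 in the lymph node set ran from 5.49 CPM through a median of 39.8 to 191 CPM, and in the other libraries from 0 through 0.0499 to 2.84 CPM. The 2 libraries just above the threshold were HFD C57n:C3Hmt replicate 4 with 5.49 CPM and HFD C57n:C57mt replicate 1 with 7.51 CPM. The 2 just below it were HFD C57n:C3Hmt replicates 1 and 2 with 2.84 and 1.90 CPM. On chow the gap was wide, with the 11 libraries of the set at 24.1 CPM or more and the other 5 at 0.0760 CPM or less.

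The library with the highest Glycam1, HFD C3Hn:C3Hmt replicate 3, stands apart. It is the only inguinal library of its sequencing run, and its summed level of 20 adipocyte genes was 16619 CPM against 34998 to 65542 CPM in the other 29. Results that turn on it are given with and without it. Column totals ran from 16.8 to 25.8 M counts (M, mega) in the lymph node set and from 16.1 to 26.3 M in the other libraries. Duplicate reads made up 29.7 to 44.2% and 32.4 to 44.6% in the 2 sets, ribosomal reads 0.43 to 2.96% and 0.61 to 8.64%, and the median number of genes detected was 16972.5 and 16436.5.

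The first question was whether set membership followed the design. The set took in 11 of 16 chow libraries and 5 of 14 HFD libraries (odds ratio 3.96, two-sided Fisher exact test, p = 0.1414, adjusted p = 0.4242 over 3 tests). It took in 9 of 16 libraries with a C57 nucleus and 7 of 14 with a C3H nucleus, and 8 of 15 with each mitochondrial genome (two-sided Fisher exact test, p = 1 for both). Within genotypes, the chow counts were 2 of 4 for C3Hn:C3Hmt and 3 of 4 for each of the other lines. On HFD they were 1 of 3 for each line with a C3H nucleus, 2 of 4 for C57n:C3Hmt and 1 of 4 for C57n:C57mt. The diet count depends on where the line is drawn: at a threshold of 10 CPM it was 11 of 16 against 3 of 14 (Fisher exact test, p = 0.01361, adjusted p = 0.0408).

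Lymphocyte, chemokine and antigen-presentation transcripts were higher in the lymph node set, and some adipocyte, matrix and blood endothelial transcripts were lower. The fit held diet, nuclear genome and set, and a gene was called at an adjusted p under 0.05 (edgeR quasi-likelihood test, Benjamini-Hochberg over 16292 genes). It called 3402 genes higher (20.9%) and 2396 lower (14.7%), with a median log2 difference of -0.03 over all genes tested. Every library of the lymph node set lay above every other library for 161 genes (0.988%), and for no gene did all lie below. The sets were drawn by 1 transcript of these same libraries, so RNA from the same piece of tissue had to differ with it. The counts below describe what went along with Glycam1 and are not an independent test of it. In bulk tissue, fewer cells of a type, less RNA per cell and dilution by RNA of other cells cannot be told apart.

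**Figure D1:**
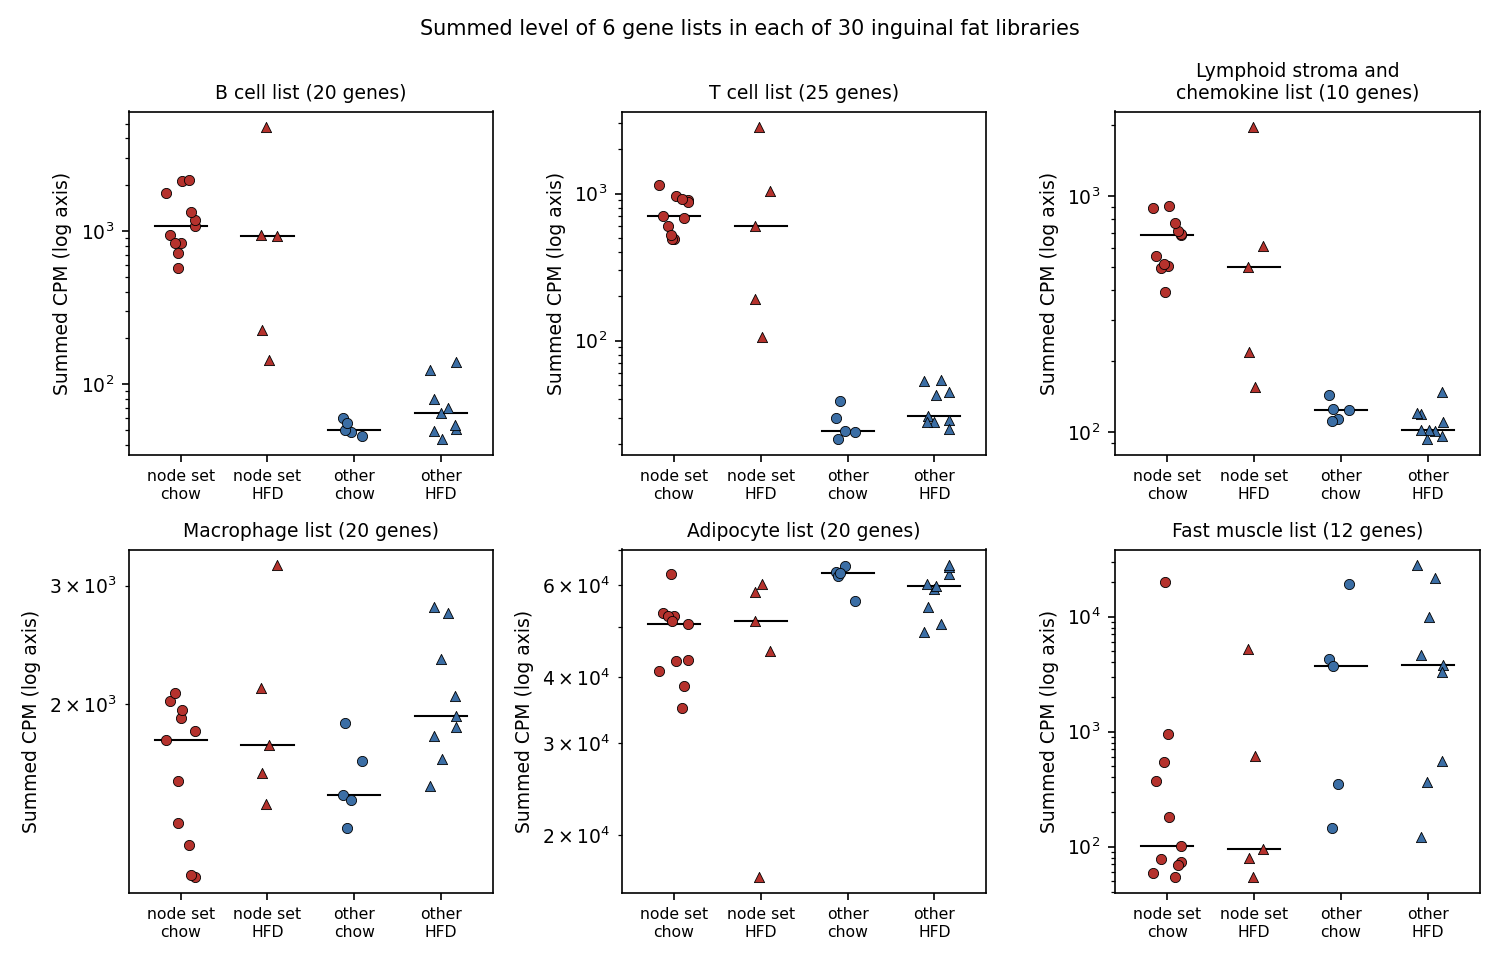
Summed level in CPM, on a log axis, of 6 gene lists in each of the 30 inguinal libraries, split by set (red, lymph node set; blue, other) and diet (circles, chow; triangles, HFD), with bars at the medians. The B cell, T cell and chemokine sums of the 2 sets do not overlap, while the adipocyte sums do.

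The chemokines that organise a node were among the transcripts that separated the sets. Of 10 genes of lymphoid stroma and homing chemokines, 9 were called higher and 1 lower, with a median log2 difference of 2.11. Their summed level was 155 CPM at the lowest, 586 at the median and 1956 at the highest in the lymph node set, against 93.5, 113 and 148 CPM in the other libraries. No library of the set fell within the range of the others.

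Ccl19, a ligand of Ccr7 made by T zone stroma (chromosome 4, 42768057 to 42770109, minus strand, NCBIM37), ran from 10.1 through 64.8 to 369 CPM in the lymph node set. In the other libraries it ran from 0.690 through 1.59 to 8.38 CPM, so the ranges did not meet. The log2 difference was 5.35 ± 0.50 (SE). Ccl21b, the second Ccr7 ligand, ran from 32.1 through 359 to 1103 CPM against 0, 13.0 and 23.5 CPM, with a log2 difference of 4.80 ± 0.53. The Ccl21 genes are near-identical copies that can share reads, and Ccl21a differed by 2.11. The cytokine Tnfsf11 (RANKL), which drives node development, was higher by 4.10 on the log2 scale.

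Cxcl13, which draws B cells into follicles (chromosome 5, 96385945 to 96390086, plus strand, NCBIM37), ran from 17.9 through 72.3 to 373 CPM in the lymph node set and from 1.12 through 5.32 to 29.1 CPM in the others. All but 2 libraries of the set, that is 14 of 16, lay above the highest of the others. The log2 difference was 3.42 ± 0.49, and it missed the threshold among HFD libraries alone (adjusted p = 0.0804, edgeR). Ltbr, the lymphotoxin receptor on stromal cells, was the member called lower, by a log2 difference of -0.38.

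High endothelial venule genes other than Glycam1 moved unevenly. Of 7, 5 were called higher and 1 lower, with a median of 1.29, and the summed level overlapped widely, at 305 to 728 CPM against 334 to 544 CPM. Chst4, a sulfotransferase of the mucins on these vessels, had at least a fractional count in all 16 libraries of the set and in 3 of the other 14. Its level ran from 0.0469 through 2.59 to 11.1 CPM against 0, 0 and 0.197 CPM. Fut7, a fucosyltransferase that acts on the same mucins, ran from 0.516 through 3.29 to 9.71 CPM against 0.324, 0.464 and 0.808 CPM, with a log2 difference of 2.72 ± 0.30. Madcam1, the addressin bound by the integrin of gut-homing lymphocytes, ran from 0.376 through 2.33 to 13.2 CPM against 0, 0.255 and 0.786 CPM. It differed by 3.10 ± 0.47 over all libraries and did not pass among HFD libraries alone (adjusted p = 0.117, edgeR). B3gnt3 was called lower by -0.47, and Enpp2, an enzyme also made by adipocytes, differed by 0.01.

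Promoters of Cxcl13 and Madcam1 are shown because they held a match in the search below and both genes were called higher over all libraries. The choice thus followed the matches, and B3gnt3, which held a match and was called lower, is not shown. For both genes shown, 14 of 16 libraries of the set lay above the others. Both belong to the node programme that lymphotoxin signalling controls through NF-κB. Both strands of the RefSeq promoter table (build GRCm38.p6) were searched for the RelB element, a site described for the lymphotoxin-driven form of NF-κB, and for the NF-κB consensus. Of 17 genes of the chemokine and venule lists, 13 matched the table, with 17 promoters. In each line the capitals mark the matches. The lines cover chr5:95956765-95956894 and chr10:79664416-79664558, both on the plus strand.

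Cxcl13: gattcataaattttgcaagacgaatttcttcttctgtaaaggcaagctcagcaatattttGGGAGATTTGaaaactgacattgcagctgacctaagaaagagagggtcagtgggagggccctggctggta

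Madcam1: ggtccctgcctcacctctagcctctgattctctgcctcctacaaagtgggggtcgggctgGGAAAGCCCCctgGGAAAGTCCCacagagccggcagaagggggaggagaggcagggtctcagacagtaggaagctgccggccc

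The RelB element of Cxcl13 ends 104 bases before the start site. The matches to the NF-κB consensus at Madcam1 lie on the opposite strand and end 73 and 60 bases before it, and neither kind of match overlaps the other. Among all 32851 promoters of the table, 469 (1.43%) hold the RelB element and 2779 (8.46%) the NF-κB consensus. Of the 17 listed promoters, 2 held the RelB element, those of Cxcl13 and of B3gnt3, which was called lower, and 1 held the consensus. The matches are letters in a window and say nothing of binding in these samples.

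B cell transcripts had the largest median difference of the 22 lists. All 20 B cell genes were called higher, with a median log2 difference of 5.69 and a range of 1.52 (Blnk, a signalling adaptor) to 6.76. Their summed level ran from 145 through 937 to 4744 CPM against 43.8, 55.1 and 140 CPM, without overlap. The nearest pair was therefore 145 CPM in HFD C57n:C3Hmt replicate 4 and 140 CPM in 1 of the other libraries.

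Cr2, the complement receptor of mature B cells and follicular dendritic cells (chromosome 1, 196963005 to 197002909, minus strand, NCBIM37), ran from 3.38 through 37.2 to 197 CPM in the lymph node set and from 0.0409 through 0.137 to 4.44 CPM in the others. Its log2 difference was 6.76 ± 0.67, with 15 of 16 libraries above the highest of the others. Cd79a, part of the B cell receptor (chromosome 7, 25682400 to 25687216, plus strand), ran from 17.1 through 138 to 774 CPM against 0.107, 0.931 and 18.6 CPM, with a log2 difference of 6.45 ± 0.72. Here too 15 of the 16 stood above all others.

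Ms4a1, which encodes CD20, ran from 15.2 through 60.7 to 281 CPM against 0.137, 0.585 and 12.0 CPM, without overlap. The low-affinity IgE receptor Fcer2a differed by 6.64 ± 0.60 and the lineage factor Pax5 by 6.39 ± 0.72. Of the 20 B cell genes, 8 had no overlap between the sets.

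T cell transcripts differed by somewhat less on the log2 scale, and more of them had no overlap. All 25 were called higher, with a median log2 difference of 4.998 and a range of 2.84 to 5.92, and 19 of the 25 had no overlap. The summed level ran from 107 through 690 to 2829 CPM against 21.4, 29.2 and 54.1 CPM.

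Cd3e, the signalling chain of the T cell receptor (chromosome 9, 44806826 to 44817673, minus strand, NCBIM37), ran from 3.10 through 33.8 to 146 CPM in the lymph node set and from 0.478 through 0.861 to 1.85 CPM in the others, a log2 difference of 5.26 ± 0.41. Cd8b1, of cytotoxic T cells, ran from 7.11 through 30.9 to 64.4 CPM against 0.0776, 0.477 and 1.75 CPM, a difference of 5.75 ± 0.37. Cd4, of helper T cells, ran from 10.1 through 57.5 to 162 CPM against 0.646, 1.39 and 11.1 CPM, a difference of 4.998 ± 0.46. Cd3e and Cd8b1 had no overlap, and for Cd4 1 library of the set lay within the range of the others.

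The factors of naive T cells Lef1 and Tcf7 differed by 5.92 ± 0.42 and 5.72 ± 0.42 on the log2 scale, and Lef1 was the highest of the list. Tcf7 ran from 10.7 through 88.4 to 410 CPM against 0.850, 1.77 and 4.86 CPM. Foxp3, the factor of regulatory T cells, ran from 0.516 through 8.003 to 37.0 CPM against 0, 0.122 and 0.656 CPM, with 15 of 16 libraries above the others. All 3 are lineage factors, and the activation genes Ctla4 and Icos of the same list were also called higher, at 5.22 and 3.83.

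**Figure D2:**
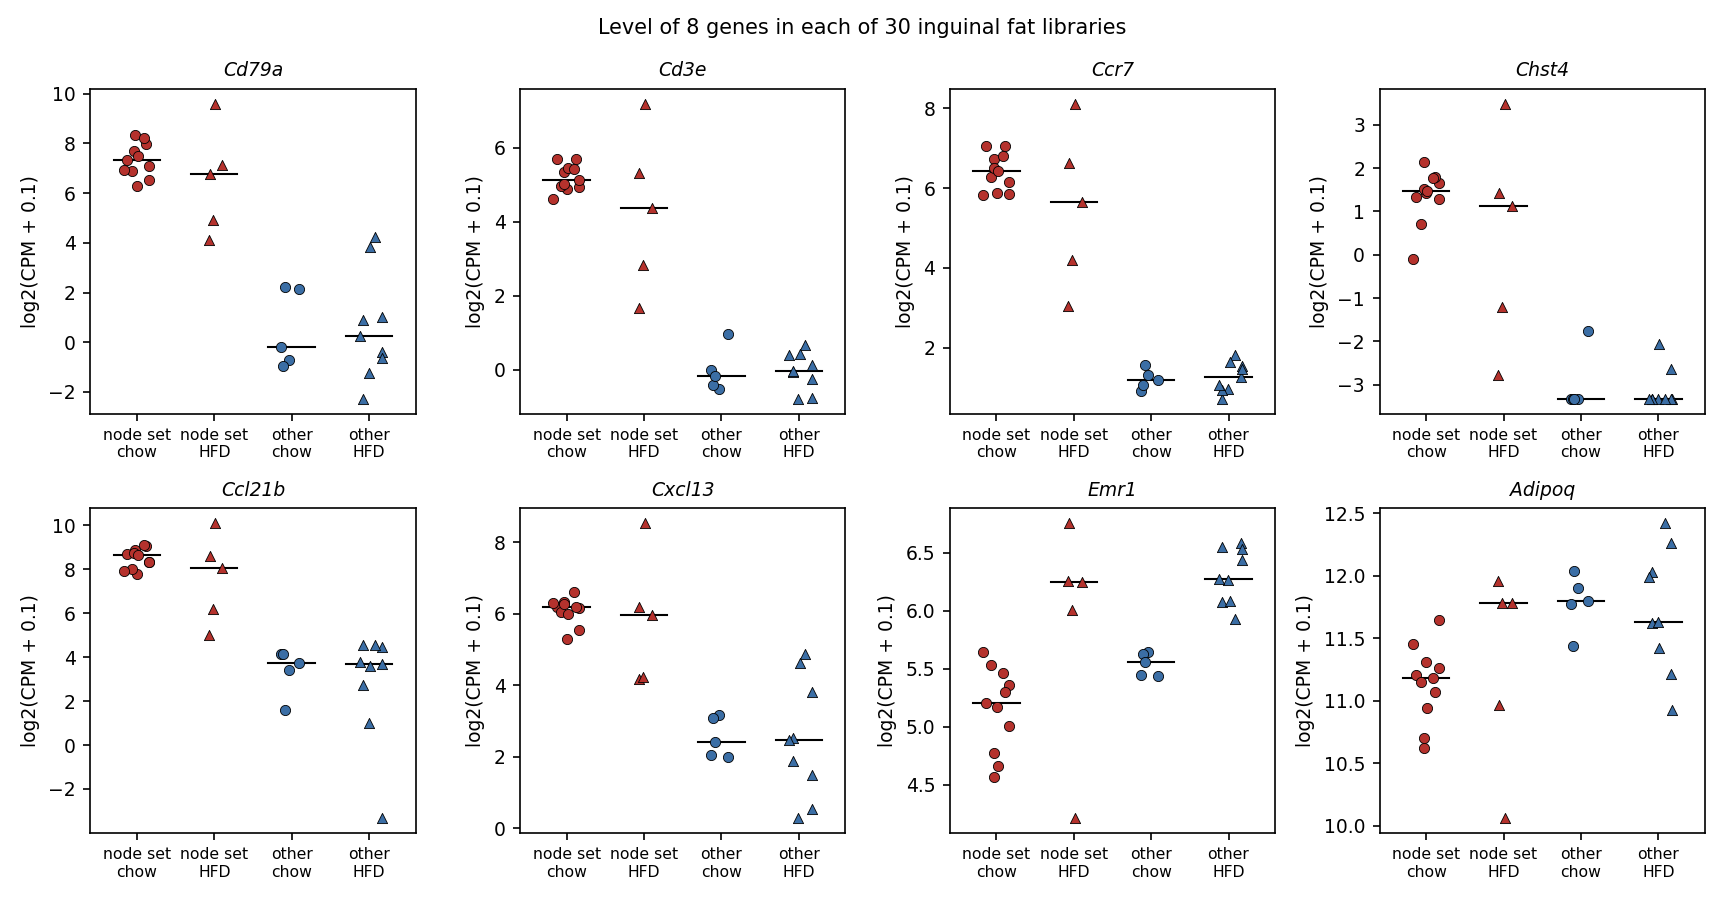
Level of 8 genes in each inguinal library as log2(CPM + 0.1), split by set (red, lymph node set; blue, other) and diet (circles, chow; triangles, HFD), with bars at the medians. Cd3e, Ccr7 and Ccl21b separate the sets without overlap, Cd79a, Chst4 and Cxcl13 nearly so, and Emr1 and Adipoq overlap.

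Genes that guide lymphocytes into and through a node followed the same order. Of 16 homing and migration genes, 15 were called higher and none lower, with a median log2 difference of 2.54. Ccr7 (chromosome 11, 99005510 to 99016391, minus strand, NCBIM37) ran from 8.17 through 81.9 to 277 CPM against 1.55, 2.24 and 3.44 CPM, a difference of 5.16 ± 0.36 with no overlap. Its product acts at entry into the node.

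The follicle receptor Blr1 (Cxcr5) differed by 5.53 and the survival receptor Il7r by 3.27 on the log2 scale. The sphingosine receptor Edg1 (S1pr1), used for exit and also made by endothelium, differed by 0.42 ± 0.12. Klf2, which controls Edg1 in T cells and is also an endothelial gene, was the member not called, at 0.58 (adjusted p = 0.0908, edgeR).

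The balance of the B and T cell lists varied among the libraries of the set. The ratio of the summed B to the summed T cell CPM, which is not corrected for gene length and serves only to compare libraries, was 0.894 at the lowest, 1.38 at the median and 2.34 at the highest. In the other libraries it was 1.02, 2.03 and 3.13. Libraries of the set with a C57 nucleus ran from 1.18 to 2.34 and those with a C3H nucleus from 0.894 to 1.68, so the nuclear genomes overlapped.

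Germinal centre and plasma cell genes were raised in part. Of 13 tested, 8 were called higher and 1 lower, with a median of 0.82. Igj, the joining chain of secreted antibody, ran from 12.6 through 59.2 to 715 CPM against 0.788, 2.98 and 15.1 CPM. Bcl6, the germinal centre factor that adipocytes also express, differed by 0.03 (adjusted p = 0.938, edgeR), and Sdc1, a plasma cell and epithelial proteoglycan, was called lower by -0.37.

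Proliferation genes were called higher in 14 of 15 cases, with a median log2 difference of 1.28. Mki67 ran from 6.73 through 16.8 to 87.2 CPM against 3.47, 8.22 and 21.5 CPM, a difference of 1.30 ± 0.27, and 3 libraries of the set stood above the others. Without HFD C3Hn:C3Hmt replicate 3 the list counted 12 higher with a median of 0.75.

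Other leukocyte lists differed by less. All 11 NK and cytotoxic genes were called higher with a median of 1.39, with Ccl5, a chemokine of effector T and NK cells, at 3.82. Without HFD C3Hn:C3Hmt replicate 3, 8 of the 11 were called higher, with a median of 1.17. Of 11 dendritic cell genes, 9 were called higher with a median of 2.00. Ccl22, a chemokine of mature dendritic cells, ran from 6.06 through 34.6 to 142 CPM against 1.02, 1.96 and 3.61 CPM, and Flt3, the growth factor receptor of their precursors, from 4.79 through 13.1 to 32.5 CPM against 1.19, 1.77 and 2.53 CPM. Neither overlapped. Cd209a, a marker of another dendritic subset, differed by -0.21 and was not called.

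All 10 MHC class II genes were called higher, with a median of 1.09. Without HFD C3Hn:C3Hmt replicate 3, 9 of the 10 were called higher, with a median of 0.74. The invariant chain Cd74 ran from 1073 through 2081 to 5427 CPM against 545, 970 and 1697 CPM, a log2 difference of 1.08 ± 0.21. The peptide-loading regulator H2-Ob, expressed mainly by B cells, differed by 5.04 and did not overlap. Cd74, which macrophages and dendritic cells also carry, differed by less than H2-Ob.

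Macrophage genes did not move as 1 group. Of 20, 4 were called higher and 3 lower, with a median of -0.18. These counts are near the shares over all genes, 20.9% higher and 14.7% lower. The summed level was 1105 to 3219 CPM against 1308 to 2791 CPM. Marco, a scavenger receptor of medullary and marginal zone macrophages, ran from 18.4 through 58.0 to 132 CPM against 1.14, 2.37 and 26.7 CPM, a difference of 3.76 ± 0.52 with 12 of 16 libraries above the others. Timd4, a receptor for dying cells on resident macrophages, differed by 2.29, also with 12 of 16 above. Mpeg1 and Lyz, called higher as well, differed by 0.67 and 0.52.

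The members called lower were Trem2 at -1.02, Gpnmb at -0.78 and Mmp12 at -0.80, genes of lipid-laden macrophages. Emr1, which encodes F4/80, ran from 18.5 through 40.1 to 108 CPM in the lymph node set and from 43.2 through 67.4 to 95.6 CPM in the others. Its difference of -0.36 ± 0.15 was not called (adjusted p = 0.0623, edgeR). Csf1r, the receptor shared by all macrophages, differed by -0.08.

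**Figure D3:**
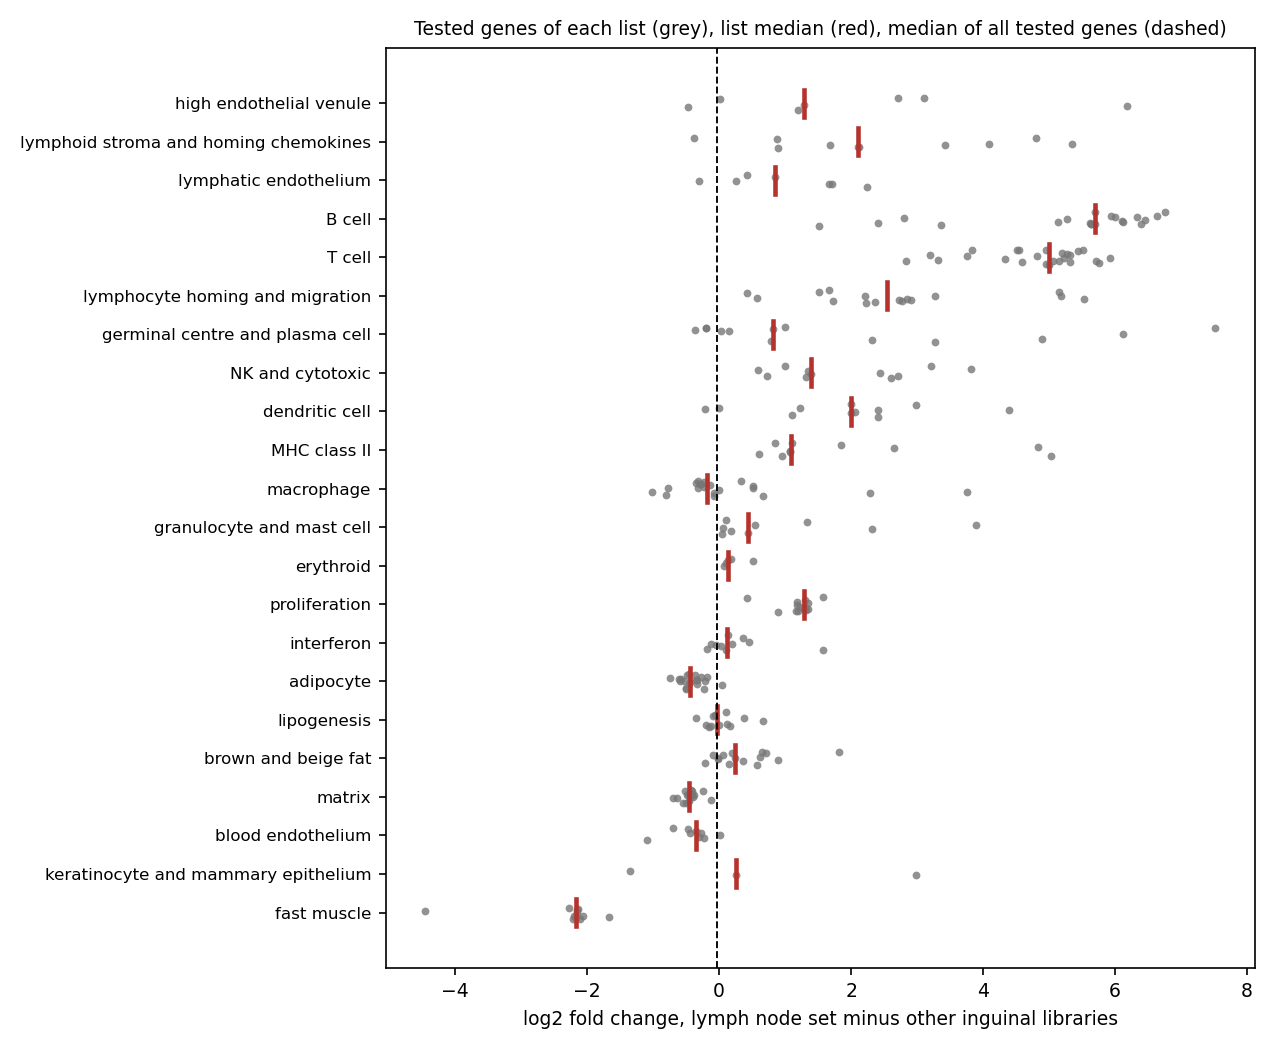
Log2 difference, lymph node set minus other inguinal libraries, of every tested gene in each list, with red bars at the list medians and a dashed line at the median of all genes. The B and T cell medians are 5.69 and 4.998, the macrophage list lies on both sides of 0, and the adipocyte, matrix and fast muscle medians are below 0.

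Of the markers that would define milk-secreting epithelium, the casein gene Csn2 was low but was counted only in libraries of the set. It had a count in 11 of the 16 libraries of the set, up to 1.13 CPM, and in none of the other 14. Other milk genes are not given singly, and whether such epithelium added to Glycam1 was not tested. Of 3 tested genes of the keratinocyte and mammary list, Tacstd1 (Epcam) was called higher at 2.99 and the keratin Krt10 lower at -1.36. The summed level of that list was 3.10 to 12.6 CPM in the set and 2.42 to 86.8 CPM in the others. Of 7 lymphatic endothelial genes 4 were called higher, among them the scavenger receptor Stab2 at 2.24 and the lineage factor Prox1 at 1.66, while Lyve1 differed by 0.26 and was not called.

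Adipocyte genes were lower in part. Of 20, 7 were called lower and none higher, with a median of -0.44: Adipoq, Cidec, Aqp7, Lpl, Retn, Cd36 and Fabp4, at -0.59 to -0.45. Their products include hormones (Adipoq and Retn) and proteins of fatty acid uptake and storage (Lpl, Cd36, Fabp4 and Cidec), and Aqp7 is a glycerol channel. Adiponectin (Adipoq, chromosome 16, 23146609 to 23158101, plus strand, NCBIM37) ran from 1068 through 2339 to 3964 CPM against 1941, 3528 and 5482 CPM, a difference of -0.59 ± 0.17. The ranges overlapped. Perilipin (Plin) at -0.34 and leptin (Lep) at -0.75 were not called (adjusted p = 0.12 and 0.0557, edgeR).

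Of 16 matrix genes 9 were called lower (median -0.45, with Sparc at -0.71 and Lox at -0.63), and of 9 blood endothelial genes 6 (median -0.36, with the tight junction gene Cldn5 at -0.70). None of 12 lipogenesis genes was called in either direction, with a median of -0.03. The adipocyte count was 13 without HFD C57n:C57mt replicate 1 and 13 without HFD C57n:C3Hmt replicate 4, the 2 libraries of the set with least Glycam1. The matrix count was 3 without chow C57n:C3Hmt replicate 1, 4 without chow C3Hn:C57mt replicate 2, and 5 without chow C57n:C57mt replicate 4 or without HFD C3Hn:C3Hmt replicate 3 (3 to 13 over all omissions of 1 library, with medians of -0.53 to -0.36). Scaling by library totals alone left 7 adipocyte, 4 matrix and 2 endothelial genes called lower, with all 3 medians still below 0.

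Skeletal muscle transcripts were lower at the median in the lymph node set, but the ranges overlapped widely. The summed level of 12 fast muscle genes ran from 54.1 through 97.4 to 20129 CPM in the lymph node set and from 121 through 3764 to 28063 CPM in the others, and 9 of the 16 libraries of the set lay below all others. The list median was -2.17 with 1 gene called lower, Myh1 at -4.45 ± 1.13, where 14.7% of all genes were called lower. None of the list was called within chow or HFD libraries alone, with medians of -2.77 and -3.69. The count over all libraries was 12 without chow C3Hn:C3Hmt replicate 1. That library held the highest sum of the set, 20129 CPM, and the next highest was 5195 CPM in HFD C57n:C3Hmt replicate 3. The count was 3 without HFD C57n:C3Hmt replicate 3, and 2 without each of chow C3Hn:C3Hmt replicates 2 and 4 and HFD C3Hn:C3Hmt replicate 1. The largest called decreases among all genes were also of muscle: Csrp3 at -4.53, Lmod2 at -4.41, Myh7 at -4.18 and Mb, myoglobin, at -3.90.

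With the fast muscle level added to the model, 2079 genes were called higher (12.3%) and 509 lower (3.01%). All 20 B cell and all 25 T cell genes were still called higher, with 9 of 10 chemokine genes and 14 of 16 homing genes. The lower calls were 1 adipocyte, 0 matrix and 3 endothelial genes, with medians of -0.35, -0.32 and -0.35. The proliferation count was 6 higher and the macrophage counts 2 higher and 0 lower. NK and cytotoxic genes called higher numbered 7 of 11, and MHC class II genes 8 of 10.

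Leaving out HFD C3Hn:C3Hmt replicate 3 gave 2591 genes higher and 1874 lower. The B and T cell counts were again 20 and 25, with medians of 5.06 and 4.59, and the chemokine count was 9. Called lower were then 6 adipocyte and 5 matrix genes.

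The genes with the largest fitted differences among those at a mean of 1 CPM or more were antigen receptor segments and genes nearly absent from the other libraries, so their levels are given in place of folds. The immunoglobulin row Ig[gamma]1/CH[gamma]1 had a count in 15 libraries of the set and 2 others, and ran from 0 through 0.732 to 2110 CPM, with the next highest library at 10.1 CPM. The T cell receptor segment TRADV14D-3 had a count in 16 libraries of the set and 2 others. Reads of such segments can be split among very similar copies, so these rows are uncertain. Tnn, a matrix protein, had a count in 15 and 1 libraries, and Insm1, a neuroendocrine factor, in 16 and 4.

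Within each diet the B and T cell lists gave nearly the same counts, while most other lists had fewer calls on HFD. Among the 16 chow libraries 3184 of 16150 genes were called higher (19.7%) and 3227 lower (20.0%), and these included 20 of 20 B cell and 25 of 25 T cell genes higher. Among the 14 HFD libraries 4.49% of 15607 genes were called higher and 0.327% lower, with 18 B cell and 25 T cell genes higher. From chow to HFD the higher calls went from 9 to 4 for chemokine, 5 to 2 for venule, 9 to 5 for NK and cytotoxic, 10 to 4 for MHC class II and 12 to 2 for proliferation genes. Their medians on HFD were 1.55, 1.04, 1.55, 1.05 and 1.30, against 2.85, 1.38, 1.48, 1.02 and 0.99 on chow. Lower calls numbered 12 adipocyte and 14 matrix genes on chow, and 0 and 0 on HFD. The adipocyte median was -0.37 on chow and -0.45 on HFD, and the matrix median -0.66 and -0.30. A test of the difference between diets, added after the values were seen, called none of 16292 genes (edgeR, set by diet interaction, 660 at an unadjusted p under 0.05). The same kind of test called 13 genes (0.0798%) for the nuclear genome and none for the mitochondrial genome (394 at an unadjusted p under 0.05), and no B or T cell gene of the lists was among the 13.

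The HFD libraries of the set spread more widely than the chow ones. On chow the B cell sum ran from 570 through 1067 to 2133 CPM, and on HFD from 145 through 928 to 4744 CPM. The T cell sum ran from 488 through 700 to 1150 CPM on chow and from 107 through 601 to 2829 CPM on HFD. The 2 lowest HFD libraries, C57n:C3Hmt replicate 4 and C57n:C57mt replicate 1, were also the 2 nearest the Glycam1 threshold, with B cell sums of 145 and 225 CPM. The highest was the C3Hn:C3Hmt library that stands apart.

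Brown and beige fat genes are given by diet, although the test of the difference between diets called none of them. Over all libraries 1 of 15 was called higher (Acot11, an acyl-CoA thioesterase of brown fat, at 1.81), with a median of 0.24. The summed level ran from 492 through 987 to 2744 CPM in the chow libraries of the set, against 193, 401 and 922 CPM in the other chow libraries. On HFD it ran from 187 through 214 to 367 CPM against 93.4, 248 and 981 CPM. Chow libraries alone gave 3 genes higher with a median of 1.09, and the HFD median was -0.29. Ucp1, the uncoupling protein of heat-producing fat, had a median of 414 CPM in the chow libraries of the set and 33.5 CPM in the other chow libraries, yet 3.40 and 37.2 CPM on HFD. Its overall difference of 0.89 ± 1.19 was not called (adjusted p = 0.581, edgeR).

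The diet comparison of inguinal fat was then set out with and without the set in the model. HFD minus chow gave 3542 genes higher (21.7%) and 2431 lower (14.9%) with the term, and 3611 (22.2%) and 2508 (15.4%) without it. The 20 B cell genes had a median log2 difference of 0.63 with the term and -0.94 without it, and the 25 T cell genes 0.26 and -0.91. Of these genes, the term left 1 T cell gene called higher, and no B or T cell gene was called without it. Both fits use the same libraries.

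These medians turned on HFD C3Hn:C3Hmt replicate 3. Without that library and without the term, 16 of 20 B cell genes and 13 of 25 T cell genes were called lower on HFD, with medians of -2.15 and -1.73. Over all genes that fit called 26.7% lower. With the term and without that library, 1 of each list was called lower, with medians of -0.36 and -0.37, against 22.4% of all genes. Leaving out all 16 libraries of the set instead called 0 of 16 tested B cell genes and 0 of 20 tested T cell genes, with medians of 0.45 and 0.26 (1101 genes higher, 7.05%, and 980 lower, 6.28%, over 15611 tested).

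**Figure D4:**
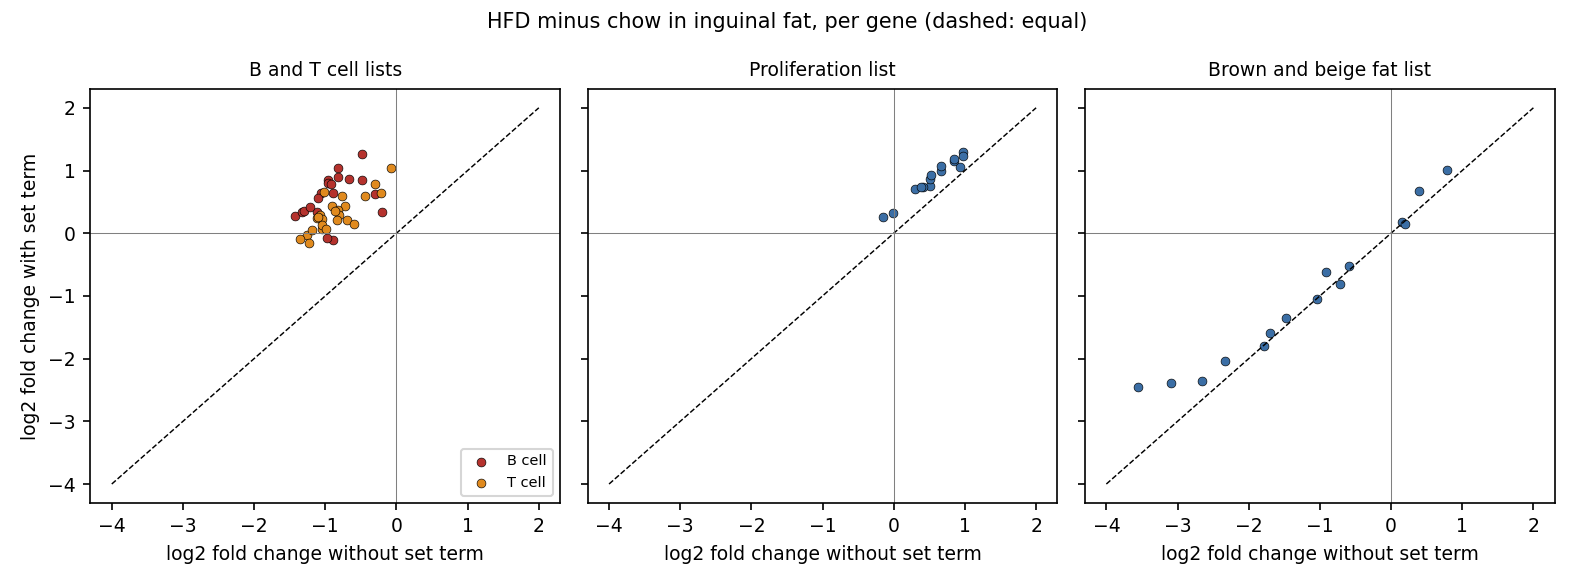
Log2 difference, HFD minus chow, of each gene of the B and T cell, proliferation, and brown and beige fat lists, fitted without (horizontal axis) and with (vertical axis) the lymph node set in the model; the dashed line marks equal values. B and T cell genes lie above the line, with medians of 0.63 and 0.26 with the term and -0.94 and -0.91 without it.

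Other lists depended on the term to a varying degree. Proliferation genes called higher on HFD numbered 11 of 15 with the term and 4 without it, with medians of 0.93 and 0.53. Over all genes 21.7% and 22.2% were called higher, and the count of 4 is near that share. Without HFD C3Hn:C3Hmt replicate 3 the proliferation counts were 5 and 1, where 22.1% and 24.5% of all genes were called higher. With the whole set left out none was called, where 7.05% of all genes were called higher. The count of 4 without the term was also 1 or 2 without any 1 of the 4 chow C3Hn:C3Hmt libraries, chow C3Hn:C57mt replicates 1 to 3, chow C57n:C57mt replicate 3 or HFD C57n:C3Hmt replicate 3. The DNA topoisomerase Top2a differed by 1.07 with the term (adjusted p = 0.000645) and 0.67 without it (adjusted p = 0.0996, edgeR). Brown and beige fat genes called lower numbered 5 of 15 with the term and 8 without it, with a median of -1.04 in both. Over all genes 14.9% and 15.4% were called lower. With the set left out 1 of the list was called lower, with a median of -0.17, where 6.28% of all genes were called lower. Ucp1 passed only without the term, at -3.09 (adjusted p = 0.0157) against -2.39 (adjusted p = 0.157, edgeR).

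Lipogenesis and macrophage genes gave nearly the same diet counts in both fits. Of 12 lipogenesis genes 10 were called lower on HFD with the term and 10 without it, and with the set left out 5. Of 20 macrophage genes 8 were called higher with the term and 9 without it, and with the set left out 5. The shares of all genes called higher were 21.7%, 22.2% and 7.05%, and of those called lower 14.9%, 15.4% and 6.28%. Ccr2, the receptor that recruits monocytes, differed by 1.29 in both fits.

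Epididymal fat of the same animals gave a measure that the rule did not use. In all, 20 animals had both depots, 10 with an inguinal library in the lymph node set and 10 without. None of 16117 genes was called between these 2 groups of epididymal libraries (0.0%, edgeR, diet and nuclear genome in the model). At an unadjusted p under 0.05 there were 726, and DESeq2 called 2. Leaving out HFD C3Hn:C57mt replicate 3 of the epididymal libraries gave 12 calls, the most of any single library.

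The summed B cell level in epididymal fat ran from 34.5 through 59.8 to 249 CPM in animals of the inguinal lymph node set and from 47.2 through 95.1 to 226 CPM in the other animals. The T cell sum ran from 19.8 through 36.2 to 55.3 CPM against 23.0, 34.1 and 50.0 CPM. The groups overlapped on both lists, with median log2 differences of -0.27 for the B cell and 0.02 for the T cell genes. Chst4 and Ccl21b were not particular to inguinal fat, with medians of 1.62 and 50.5 CPM over all 29 epididymal libraries.

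**Figure D5:**
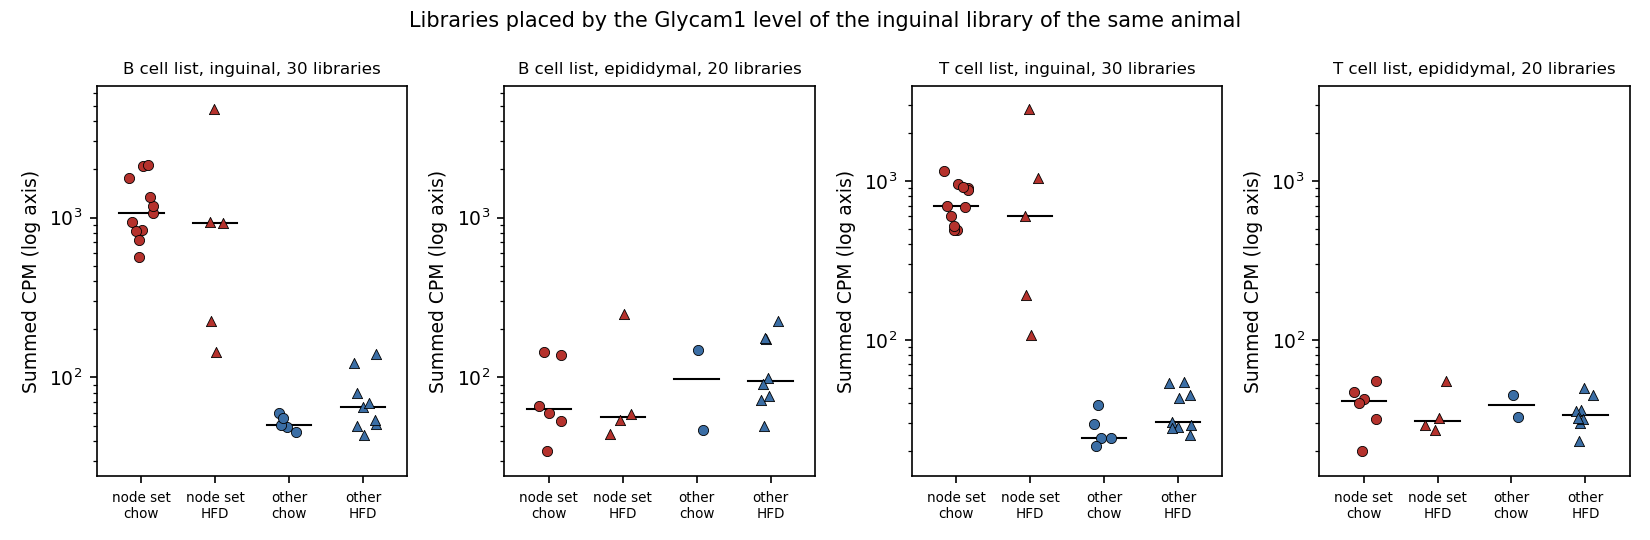
Summed CPM, on a log axis, of the B cell and T cell lists in 30 inguinal libraries and in 20 epididymal libraries of the same animals, both split by the set of the inguinal library. The inguinal sets do not overlap, and the epididymal libraries of the same 2 groups of animals do.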

How the data were processed

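The members and gene lists were chosen with earlier results of these data known. The authors deposited expected counts per gene, not normalized, made with RSEM per the submitters' processing notes, in a chow table (22423 genes) and an HFD table (21983 genes), with 21625 genes in both. The mm9 build is named in the submitters' processing notes, and gene positions are from NCBIM37 (the same assembly). Library quality values, in percent of reads where printed so, are as deposited by the authors. Expected counts were rounded and fitted with edgeR 4.0.16 in R 4.3.3: TMM scaling, filterByExpr (minimum count 10, total 15, proportion 70%), quasi-likelihood F test, diet, nuclear genome and set as terms. DESeq2 1.42.0 was an alternative. Genes named are the 10 with the largest called difference in each direction, up to 4 per list, and defining markers; a few of these are not reported here. P-values measure the spread between animals. On simulated counts, 84 of 100 genes changed 2-fold and 96 of 100 changed 4-fold were recovered between the sets over 16292 genes, with 7 false calls. Those genes were changed equally up and down, with no effect of diet or nuclear genome. Far fewer genes were changed than were called in the real libraries, so these rates do not carry over to them.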

Additional observations from a re-analysis of the deposited data

Results flagged for a closer look

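Among 18 groups of 4 to 10 values examined, 5 held a library far from the rest, and chance flags about 1 group in 20. HFD C3Hn:C3Hmt replicate 3 was far above the other 4 HFD libraries of the lymph node set, with a B cell sum of 4744 CPM and a chemokine sum of 1956 CPM. HFD C57n:C3Hmt replicate 1 had the highest chemokine sum of the HFD libraries outside the set, 148 CPM, and also the Glycam1 level nearest below the threshold. Fast muscle sums stood apart at 5195 CPM in HFD C57n:C3Hmt replicate 3, of the set, and at 19365 CPM in chow C3Hn:C57mt replicate 2, outside it.

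The difference between the sets depended on the nuclear genome for 13 of 16292 genes (0.0798%), by an interaction term in edgeR added after the data were seen, with 1711 genes at an unadjusted p under 0.05. The histocompatibility gene H2-Q7 had medians of 137 CPM in the set and 33.9 CPM outside it with a C57 nucleus, against 56.9 and 62.7 CPM with a C3H nucleus (interaction on the log2 scale 1.72, adjusted p = 0.00705, edgeR). The sterol regulator Insig1 had 433 and 253 CPM against 286 and 508 CPM (interaction 1.96). The cytochrome Cyp4f18 had 14.8 and 6.95 CPM against 7.89 and 0.549 CPM (interaction -3.14). These 3 were chosen after their values were seen, and whether reads of both strains map equally well to them was not tested. The mitochondrial genome interaction called 0 genes by the same test, with 394 at an unadjusted p under 0.05.

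In epididymal fat, which the set comparison did not use, chow C57n:C57mt replicate 3 carried Glycam1 at 9.12 CPM, above the median of 0 over 29 epididymal libraries.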

How the results depend on the processing

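No paired analysis was possible because each inguinal library comes from a different animal and the replicate numbers were given in accession order. Directions were compared over the alternatives for the defining markers and the 10 genes with the largest called difference in each direction. Of these, Ucp1, which was not called, changed direction, at -1.83 in HFD libraries alone and -0.13 with the fast muscle covariate against 0.89. The others kept theirs in every alternative run that tested them, and the remaining named genes are not covered by this comparison. Genes higher in the set were 4.49% of those tested in HFD libraries alone and 12.3% with the fast muscle covariate, against 20.9%, and 15.8 to 22.8% leaving out 1 library at a time. Genes lower were 8.31% with library totals only, 8.62% with run in place of diet, 0.327% in HFD libraries alone, 22.9% at a Glycam1 threshold of 10 CPM and 3.01% with the muscle covariate, against 14.7% (11.4 to 20.0% leaving out 1 library). Of all calls, 58.7% were higher with TMM, 74.2% with library totals only, where the median of all genes moved from -0.03 to 0.03. B and T cell counts were 20 and 25 in every fit that left out 1 library. Adipocyte genes lower numbered 12 on chow, 0 on HFD, 3 and 16 at thresholds of 2 and 10 CPM, 14 without libraries between 1 and 10 CPM and 1 with the muscle covariate (6 to 13 leaving out 1 library). Fast muscle genes lower numbered 2 with DESeq2 and without covariates, 12 with the 8 groups as covariate, and 0 on chow, on HFD and with the muscle covariate (1 to 12). With the set left out, diet calls were 1101 higher, 980 lower, 0 proliferation and 1 brown or beige gene. Leaving out 1 library gave diet counts with the term of 2814 to 3737 higher, 2340 to 3685 lower, 5 to 14 proliferation and 5 to 7 brown or beige genes. Without the term they were 3066 to 4023, 2317 to 4389, 1 to 5 and 7 to 9. The 3685 and 4389 came without HFD C3Hn:C3Hmt replicate 3. Epididymal calls were 2 with DESeq2 and 0 to 12 leaving out 1 library. The Fisher adjusted p for diet was 0.0408 at 10 CPM. The fast muscle covariate and the interactions were chosen after seeing the data.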
